A study of Danio rerio with 4 samples.

Results

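Heat shock proteins and other molecular chaperones were compared between 2 populations of cells sorted from kidneys of adult zebrafish, where blood is formed. The members were the genes whose platform symbol begins with hsp, hsf and a digit, dnaj, cct2 to cct8, bag1 to bag6, pfdn, ahsa1, stip1 or serpinh1, or is tcp1, each read from the brightest of its own probe sets, averaged across the 4 arrays. The patterns found 72 of the 8796 genes that had a probe set of their own. The zSP group is the side population of the lymphoid scatter gate, which stains dimly with the DNA dye Hoechst, and the zMP group is the main population of the same gate. Strain and sex are not stated, ages are given only as adult, and neither group received a treatment named in the labels. For each group, RNA from 20 fish and 3 sorting experiments was pooled, divided between 2 arrays, amplified by 2 rounds of in vitro transcription and hybridised. Each population is therefore 1 pool, the spread between its arrays is technical, and no test between the populations was possible.

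Chaperones bind unfolded stretches of other proteins and help them fold, refold or reach their compartment. HSP70 works in cycles of ATP binding that are set by DnaJ proteins, which deliver clients, and by exchange factors such as the BAG proteins, which release nucleotide. HSP90 finishes the folding of kinases and receptors, small heat shock proteins hold unfolded proteins in solution, and the ring-shaped chaperonin TRiC folds actin and tubulin that prefoldin hands to it. Some genes of these families are transcribed in every cell, while others are switched on by heat shock factor when unfolded proteins accumulate.

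All values are RMA expression values on the log2 scale, and a difference is the zSP mean minus the zMP mean, followed by the lowest and highest of the 4 pairs of a zSP and a zMP array. A gene was called when each of the 4 pairs differed by 1 or more, a 2-fold change, with 1 sign. Values up to 6.15, the highest group mean among 49 blank control probe sets, are called within the blank range: they are no evidence of a transcript. Of the 72 members, 39 had a mean above that level in at least 1 pool, 27 in both, and 33 in neither. The median difference of all genes was -0.20, and it was 0.0024 after cyclic loess, so that small negative differences lie near the centre of the distribution. Over the blank controls the median difference was -0.38, and the GAPDH controls, whose signal at the 3′ end over that at the 5′ end shows how far the RNA copies reach, had a gap wider by 0.86 in zSP. Of the 49 blank controls, 48 were lower in zSP. The hybridisation controls had medians of 8.72 and 9.33 on the zSP arrays and 9.35 and 9.73 on the zMP arrays. The part of these technical values in the results was not tested. In a bulk sample, fewer cells of a type and less RNA per cell cannot be told apart.

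Differences varied between classes and within them. The stress-inducible cytosolic genes with signal, 3 of 6, were far higher in zSP. Their constitutive relatives hspa8 and hsp90ab1 lay within 0.07 of zero as deposited (0.28 and 0.53 after cyclic loess). The constitutive class as a whole, however, ranged from -2.61 to 2.47. The cytosolic chaperonin was lower in zSP in every subunit. Of the 72 members, 9 were called higher in zSP, a share of 12.5% against 7.84% of all genes. Another 2 were called higher in zMP, 2.78% against 2.89% of all genes, a share near the background. The arrays of the pools did not overlap for 17 members on the zSP side and for 26 on the zMP side, shares of 23.6% and 36.1% against 21.7% and 41.0% of all genes. Among the 27 members with both means above the blank range, 4 were called towards zSP and 2 towards zMP, against 6.82% and 6.61% of the 1892 such genes. In that subset 6 members were higher in zSP in all pairs and 14 were lower, against 23.8% and 41.0%. Over the 12 genes of the chaperonin and prefoldin class the median difference was -0.95, over the 8 mitochondrial members -0.67, over the 20 constitutive cytosolic members and cochaperones 0.0085, over the 10 ER members 0.12, over the 6 inducible cytosolic members 1.45 and over the 3 small heat shock proteins 3.28.

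**Figure D1:**
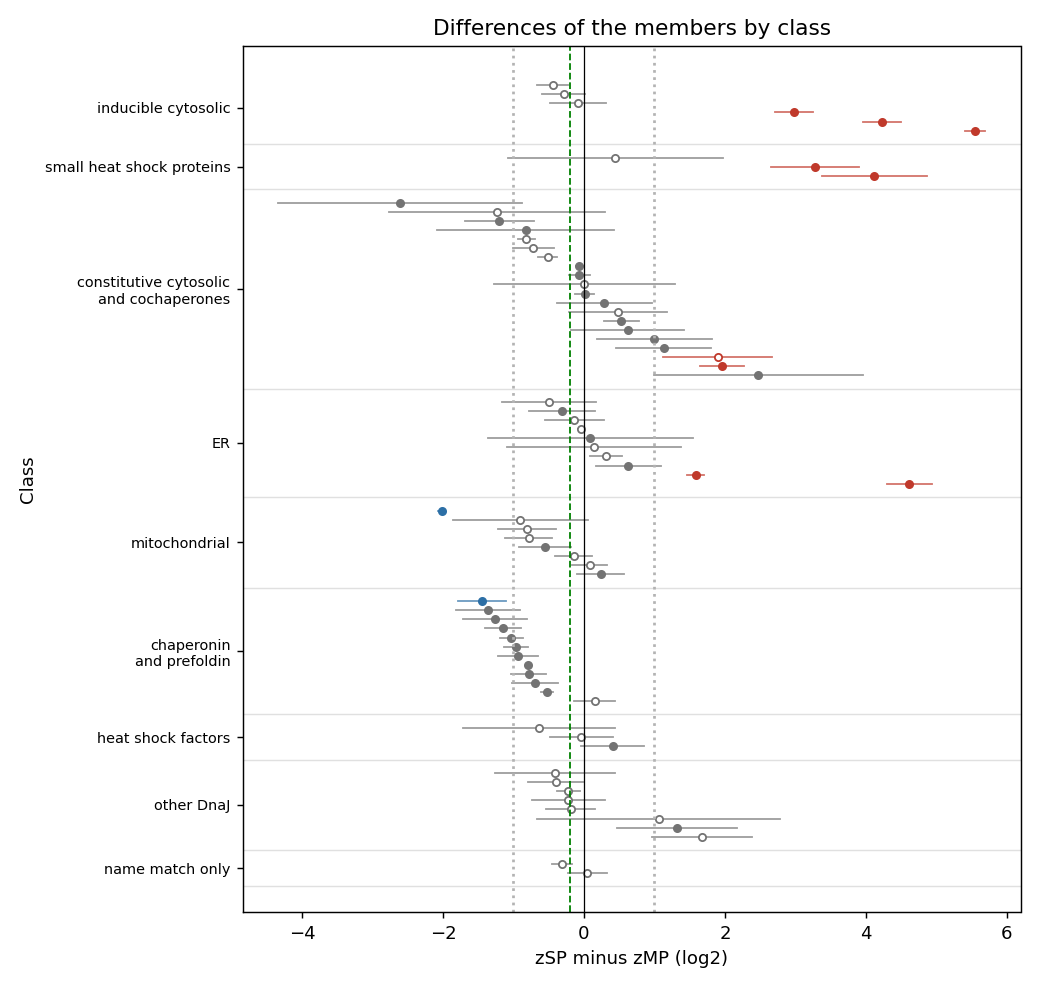
Each point is 1 of the 72 members, placed by the log2 difference of the zSP mean over the zMP mean, and each bar runs from the lowest to the highest of the 4 pairs of arrays. Red points were called higher in zSP (9 members), blue points higher in zMP (2 members), open points had both means within the blank range, the dotted lines mark a 2-fold difference and the dashed line is the median of all genes at -0.20.

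The inducible cytosolic class held the largest difference of all members. The inducible HSP70 gene hsp70.3 read 12.64 and 12.56 on the zSP arrays and 7.15 and 6.95 on the zMP arrays, a difference of 5.55 (5.41 to 5.69) or 46.8-fold. Both arrays of zMP were themselves above the blank range, so that the transcript was measured on either side. The probe set carries the platform's mark for sequence shared with other transcripts. A second probe set, annotated jointly to hsp70.1, hsp70l and hsp70.3, read 11.50 and 11.78 in zSP and 5.74 and 5.83 in zMP, a difference of 5.86 (5.68 to 6.04). Which of these HSP70 copies gave the signal cannot be told from probe sets that they share.

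The stress-inducible HSP90 gene hsp90aa1.2 read 11.06 and 10.75 in zSP against 6.57 and 6.79 in zMP, a difference of 4.23 (3.96 to 4.50) or 18.7-fold. No array of one pool came near those of the other. Its second probe set, at 9.24 and 9.12 in zSP and 5.18 and 4.06 in zMP, gave 4.55 (3.93 to 5.17), and another probe set that it shares with hsp90aa1.1 gave 4.18 (3.82 to 4.53). All 3 probe sets were thus called in the same direction. The copy hsp90aa1.1, which lies next to it in the gene table and serves myosin folding in skeletal muscle, was within the blank range, at 2.92 and 3.00 in zSP and 3.22 and 3.59 in zMP.

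The DnaJ gene dnajb1b, whose human relative is the main heat-inducible partner of cytosolic HSP70, read 10.44 and 10.78 in zSP and 7.52 and 7.73 in zMP. Its difference was 2.98 (2.71 to 3.25), or 7.89-fold, with no overlap between the pools. The other 3 members of the class, hsp90aa1.1, hspa1b and dnajb1a, differed by -0.44, -0.28 and -0.08, and neither pool exceeded the blank range. The class median of 1.45 (1.12 to 1.78 over the pairs of arrays) therefore lies between 3 measured genes with large differences and 3 without shown signal. The inducible genes bag3 and hsph1 and the cochaperone stip1 were not analysed here.

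Among small heat shock proteins, hspb1 (the HSP27 gene) read 9.78 and 10.07 in zSP against 6.40 and 5.21 in zMP, a difference of 4.12 (3.37 to 4.86) or 17.4-fold. The zMP arrays lay on either side of the top of the blank range. Their mean was within it, so that this fold stands partly against background. Its relative hspb8, which in mammals works with BAG3 in clearing misfolded proteins, read 6.93 and 6.03 in zSP and 3.37 and 3.03 in zMP, a difference of 3.28 (2.66 to 3.90). Here zMP was wholly within the blank range, and 1 of the zSP arrays was too. The muscle-enriched hspb6 was within the blank range on all arrays, at 2.93 and 5.37 in zSP and 4.01 and 3.40 in zMP. Its difference of 0.45 was 1.67 with zSP replicate 2 alone and -0.77 with zSP replicate 1 alone.

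**Figure D2:**
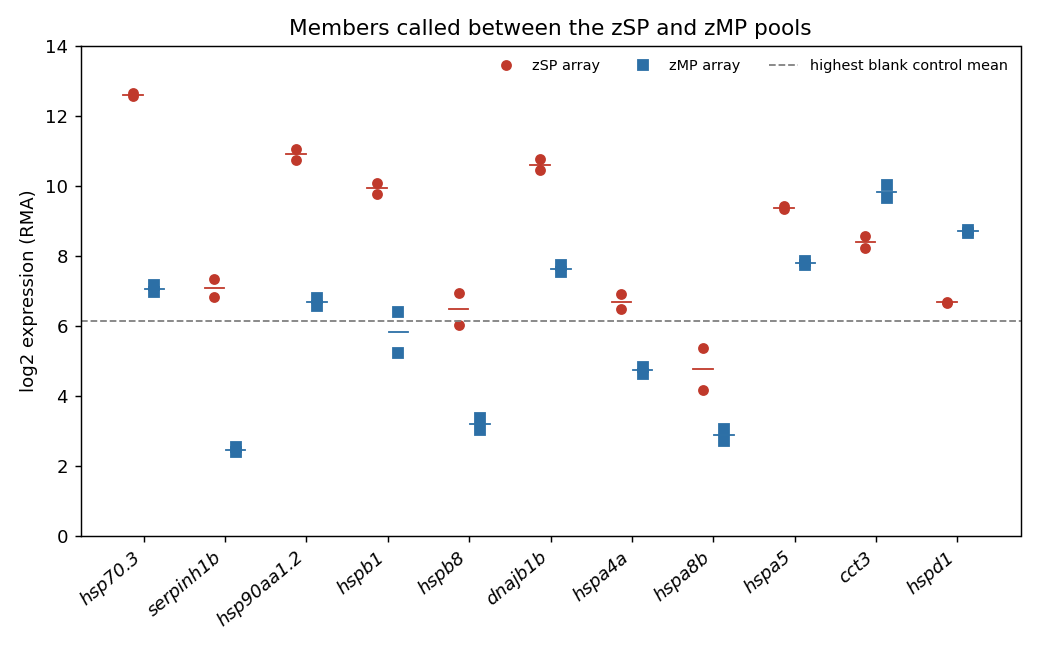
The y axis is the RMA expression value on the log2 scale for each of the 11 called members, with zSP arrays as red circles, zMP arrays as blue squares, a short line at the mean of each pool and a dashed line at the highest blank control mean, 6.15. The pools do not overlap for any of the 11, and hsp70.3 shows the widest separation at 5.55.

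The heat shock factors, the transcription factors that switch on inducible chaperones, were not called. The main factor hsf1 read 3.94 and 2.85 in zSP and 4.57 and 3.50 in zMP, a difference of -0.64 (-1.72 to 0.44), and its second probe set gave -0.09. All of these values were within the blank range. The related hsf2 was measured on every array, at 7.49 and 7.07 in zSP and 7.11 and 6.64 in zMP, a difference of 0.41 (-0.04 to 0.86). The arrays of hsf2 overlapped between the pools as deposited and after a second quantile normalization (0.22). After centring the arrays on their medians and after cyclic loess, hsf2 was higher in zSP in all pairs, by 0.48 and 0.49. Its relative hsf5 was within the blank range throughout, at 2.37 and 1.84 in zSP and 1.96 and 2.33 in zMP.

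The constitutive cytosolic class and its cochaperones ranged from -2.61 to 2.47. Of the 20 members, 2 were called, both towards zSP, against 7.84% of all genes. In both pools 6 members lay above the blank range. The main constitutive HSP70 and HSP90 genes differed little as deposited. The constitutive HSP70 gene hspa8 read 10.51 and 10.35 in zSP and 10.57 and 10.43 in zMP, a difference of -0.07 (-0.22 to 0.08). The constitutive HSP90 gene hsp90ab1 read 12.79 and 12.64 in zSP and 12.64 and 12.76 in zMP, a difference of 0.01 (-0.13 to 0.15). For both genes the arrays of the pools overlapped on these probe sets. A second probe set of hsp90ab1, within the blank range, gave -0.50 (-0.73 to -0.26). After cyclic loess both were higher in zSP in all pairs, by 0.28 for hspa8 and 0.53 for hsp90ab1. After a second quantile normalization hsp90ab1 was again higher in all pairs, by 0.49, while hspa8 still overlapped at -0.07. The DnaJ partner dnaja2a, at 9.28 and 9.24 in zSP and 9.30 and 9.36 in zMP, differed by -0.07, a value that was 0.19 after cyclic loess.

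Of the exchange factors of HSP70, only hspa4a was called. The HSP110 gene hspa4a was called higher in zSP, at 6.90 and 6.47 against 4.63 and 4.83, a difference of 1.96 (1.64 to 2.27) with zMP within the blank range. Its copy hspa4b had the other sign at -0.83 (-2.08 to 0.42), with a zSP array at 4.42 below the other 3 and no call. The relative hspa4l, for which neither pool exceeded the blank controls, stood at -1.24 (-2.77 to 0.29). The exchange factor hspbp1 came close to a call, at 6.51 and 7.23 in zSP and 5.51 and 3.27 in zMP. Both of its zMP arrays were within the blank range. Its difference of 2.47 had a lowest pair of 0.99, was 3.60 without zMP replicate 1 and 1.35 without zMP replicate 2, and its second probe set gave 1.63 (0.89 to 2.38). The BAG genes measured were bag2 (-0.72), bag4 (0.007), bag5 (-0.51) and bag6 (0.62), of which only bag6, a factor in the quality control of membrane proteins, exceeded the blank range, in its zSP mean. None of the 4 was called.

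The second HSC70 copy hspa8b was called higher in zSP at 4.17 and 5.37 against 2.70 and 3.05, a difference of 1.90 (1.12 to 2.67). All of its values were within the blank range, so that no transcript was shown. The ribosome-associated HSP70 relative hspa14 had the largest difference towards zMP of all members, -2.61 (-4.33 to -0.88), and was not called. It read 7.91 and 7.22 in zMP but 3.57 and 6.33 in zSP, so that the size rests on a single zSP array. The difference was -3.99 with zSP replicate 2 left out and -1.23 with zSP replicate 1 left out.

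Within the constitutive class no DnaJ cochaperone was called. The aggregation-suppressing dnajb6b was higher in zSP in all pairs by 1.13 (0.45 to 1.81), with its zMP mean within the blank range. The gene dnajc7, which binds HSP70 and HSP90, was higher in all pairs by 0.999 (0.18 to 1.82). The HSP70 partner dnaja2b was lower in all pairs at -1.20 (-1.69 to -0.71), and its second probe set gave -1.14. The related dnaja1 differed by 0.29 (-0.38 to 0.96). The HSP90 ATPase activator ahsa1b was higher by 0.53 (0.29 to 0.78), whereas its copy ahsa1a stood at -0.82 within the blank range.

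**Figure D3:**
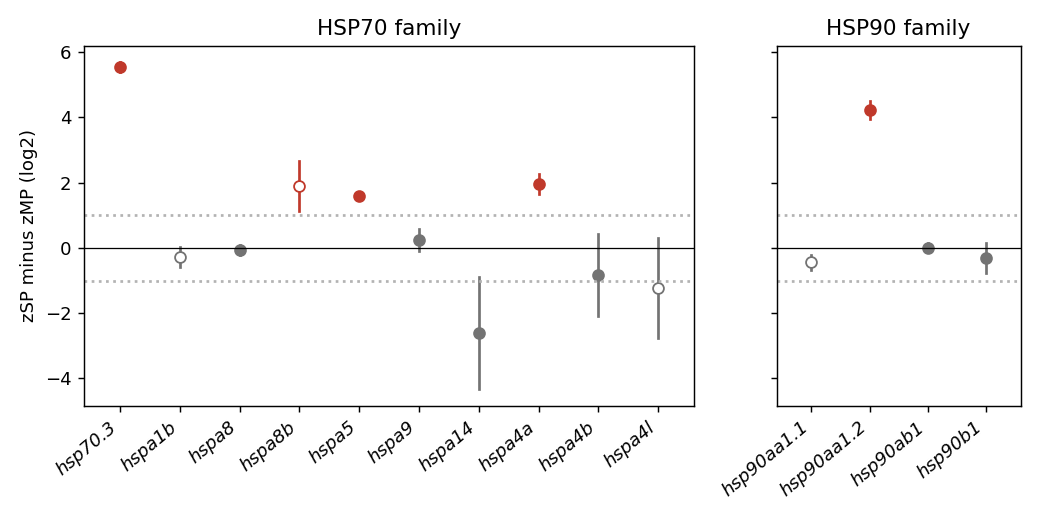
The difference, zSP minus zMP on the log2 scale, is plotted for 10 genes of the HSP70 family, relatives of the HSP110 type included, and for the 4 genes of the HSP90 family, with bars from the lowest to the highest of the 4 pairs of arrays. Red marks a call towards zSP, open points have both means within the blank range and dotted lines mark a 2-fold difference. In each family an inducible gene has the largest difference, hsp70.3 at 5.55 and hsp90aa1.2 at 4.23. The constitutive genes hspa8 and hsp90ab1 lie at -0.07 and 0.01 as deposited. In the HSP70 family hspa4a (1.96), hspa8b (1.90) and hspa5 (1.59) were also called towards zSP, and hspa14 lies at -2.61 without a call.

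Gene copies were also set side by side. In 10 pairs of members whose symbols mark them as copies of a gene, 4 pairs had 1 called copy and 1 that was not called, namely hsp90aa1.2, dnajb1b, hspa4a and hspa8b against their partners. Signs were opposite in 6 of the 10 pairs. Over all genes 3434 means were higher in zSP and 5362 lower, so that opposite signs are common between any genes. In only 2 pairs, hspa4a with hspa4b and dnaja2a with dnaja2b, did each copy exceed the blank range in some pool. The arrays of hspa4b overlapped between the pools, and dnaja2a and dnaja2b had the same sign. For the other pairs at least 1 copy was not shown to be transcribed, so that they do not show 2 measured copies going apart.

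In the endoplasmic reticulum 2 of 10 members were called, both higher in zSP, against 7.84% of all genes. The collagen chaperone serpinh1b, known as HSP47, read 6.82 and 7.33 in zSP and 2.52 and 2.39 in zMP, a difference of 4.62 (4.29 to 4.94) or 24.6-fold against a zMP level within the blank range. The ER HSP70 gene hspa5 (BiP) read 9.43 and 9.33 in zSP and 7.73 and 7.86 in zMP, a difference of 1.59 (1.46 to 1.71) or 3.00-fold. Both were separated in all pairs, and hspa5 was above the blank range on every array. The ER HSP90 gene hsp90b1, or GRP94, which is commonly induced together with BiP, was not called: it read 7.39 and 6.62 in zSP and 7.24 and 7.40 in zMP, a difference of -0.31 (-0.78 to 0.15). The BiP cofactor dnajb11 was higher by 0.63 (0.17 to 1.09), with 6.90 and 7.81 in zSP and 6.72 and 6.73 in zMP. After a second quantile normalization the arrays of dnajb11 overlapped between the pools, at 0.44. With that scaling hsp90b1 was lower in zSP in all pairs, at -0.49.

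The remaining ER members lay between -0.50 and 0.31. The ER membrane DnaJ gene dnajc1 varied widely between the zSP arrays, at 6.33 and 8.47. The BiP cochaperones dnajc3a (-0.50) and dnajc3b (-0.04), the disulfide reductase dnajc10 (0.31) and the membrane proteins dnajb12a (-0.14) and dnajc18 (0.14) had both means within the blank range. The ER class median of 0.12 was 0.44 without zSP replicate 1, 0.35 without zMP replicate 2 and 0.0035 without zSP replicate 2.

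Stromal and epithelial markers were higher in zSP along with serpinh1b. Of 12 stroma and smooth muscle genes measured of 16 listed, 9 were called, all towards zSP, against 7.84% of all genes. The median was 2.92. The collagen genes col1a2 and col1a1a, picked here after their values were seen as clients of serpinh1b, differed by 2.05 (within the blank range) and 1.77 (not called). Among the called genes of the list were tagln (6.47), acta2 (5.46), ccn1 (5.17) and postnb (3.71, both means within the blank range). The first 3 of these mark or act in smooth muscle and fibroblasts. The summed level of the list was 12.85 and 12.86 in zSP and 8.20 and 8.90 in zMP on the log2 scale. Of 20 epithelial and tubule genes measured of 22 listed, 15 were called higher in zSP, against the same 7.84% of all genes. The largest differences were those of epcam (7.65), krt18a.1 (6.71), cldn3d (6.62) and tm4sf4 (6.45). Summed levels of the 20 genes measured were 13.79 and 13.74 in zSP against 8.59 and 8.62 in zMP. In this list 17 genes were higher in zSP in all pairs and 2 were lower, slc12a3 (-0.93) and pax8 (-0.78). For these 2, and for the called slc13a1, hnf1bb and pax2a, neither pool exceeded the blank range. The genes of the last 2 sentences were picked here after their values were seen. In zMP 1 gene of each list, krt8 and ccn1, exceeded the blank range. The part of these cell types in the differences of serpinh1b, hspb1, hspb8 and the inducible genes was not tested.

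Mitochondrial chaperones included the clearest member on the zMP side. The matrix chaperonin hspd1, HSP60, read 6.66 and 6.68 in zSP and 8.66 and 8.73 in zMP, a difference of -2.02 (-2.07 to -1.98), or 4.06-fold lower in zSP. The arrays of each pool nearly coincided and all 4 lay above the blank range. Its lid hspe1, HSP10, which lies beside it in the gene table and forms a complex with it, read 8.56 and 8.07 in zSP and 8.99 and 8.76 in zMP. The difference of hspe1 was -0.56 (-0.93 to -0.19), of the same sign and not called. After cyclic loess the arrays of hspe1 overlapped between the pools, at -0.36. The mitochondrial HSP70 gene hspa9 differed by 0.24 (-0.09 to 0.57), at 6.87 and 7.48 in zSP and 6.92 and 6.97 in zMP, where the arrays overlapped. Its second probe set, within the blank range, gave -0.86 (-1.77 to 0.05).

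The other 5 mitochondrial members had both means within the blank range. Their differences were 0.08 for the import motor subunit dnajc19, -0.15 and -0.90 for the HSP70 partners dnaja3a and dnaja3b, -0.78 for dnajc11a, a gene of inner membrane organisation, and -0.81 for dnajc30b. By array, dnaja3b read 3.75 and 2.54 in zSP and 4.40 and 3.70 in zMP, and dnajc30b read 3.47 and 3.59 against 4.69 and 3.98. The class median of -0.67 was -0.30 without zSP replicate 2.

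The cytosolic chaperonin TRiC was lower in zSP as a whole. All 8 subunits were above the blank range in both pools, and in all 8 each zSP array lay below each zMP array, which was so for 41.0% of all genes and for the same share of the genes with both means above the blank range. The median over the subunits was -0.95 (-1.04 to -0.81 over the pairs of arrays), against -0.20 for all genes and -0.21 for genes above the blank range in both pools. The largest difference was that of cct3, at 8.55 and 8.24 in zSP and 9.65 and 10.02 in zMP, -1.44 (-1.78 to -1.10). It was the only subunit called, and after cyclic loess it stood at -1.20 and was no longer called. The founding subunit tcp1 read 8.53 and 9.13 in zSP and 9.94 and 10.25 in zMP, a difference of -1.26 (-1.72 to -0.81).

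The other TRiC subunits followed with smaller differences. Values were -1.03 for cct6a, -0.97 for cct7, -0.94 for cct8, -0.80 for cct2, -0.69 for cct4 and -0.52 for cct5. The second probe set of cct2 gave -1.11 (-1.30 to -0.93), though within the blank range. After cyclic loess the median was -0.60, all 8 subunits remained lower in zSP by their means and 7 of the 8 in all pairs, against 27.4% of all genes. After a second quantile normalization the median was -0.87, again with 7 of the 8 lower in all pairs, against 38.7% of all genes.

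Prefoldin, which delivers actin and tubulin chains to TRiC, had 4 subunits measured. The subunit pfdn5 read 7.37 and 6.72 in zSP and 8.53 and 8.28 in zMP, a difference of -1.36 (-1.81 to -0.91). The subunits pfdn6 and pfdn4 differed by -1.15 (-1.41 to -0.90) and -0.79 (-1.03 to -0.54). These 3 were lower in zSP in all pairs, as were 41.0% of all genes, and none was called. The zSP mean of pfdn6 lay within the blank range. At 1.5-fold, and after a second quantile normalization, pfdn5 and pfdn6 were called higher in zMP. The subunit pfdn2 was within the blank range in both pools and differed by 0.15.

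**Figure D4:**
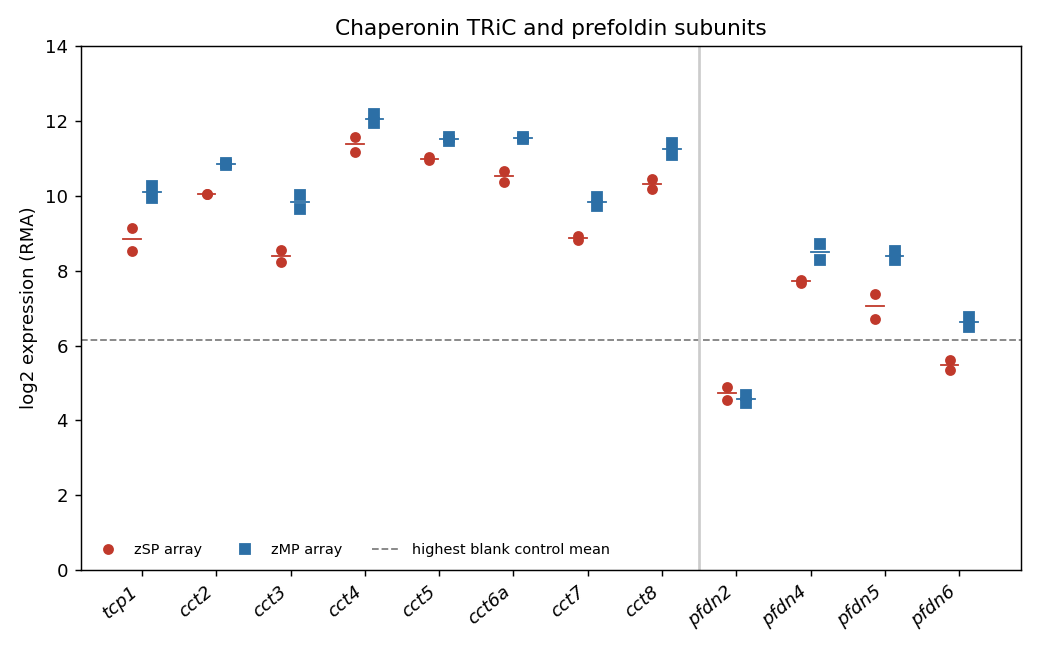
The y axis is the RMA expression value on the log2 scale for the 8 TRiC subunits (left of the grey line) and the 4 prefoldin subunits (right), with zSP arrays as red circles, zMP arrays as blue squares, a short line at each pool's mean and a dashed line at the highest blank control mean, 6.15. In every TRiC subunit both zSP arrays lie below both zMP arrays, by a median of 0.95 between the means.

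Leukocyte genes were lower in zSP, as the chaperonin was. Of 12 pan-leukocyte genes measured of 19 listed, 4 were called higher in zMP, against 2.89% of all genes, and none was called higher in zSP. Among the 4 were the actin regulators coro1a (-2.02) and wasb (-1.50) and the antigen presentation gene cd74b (-1.17). The means of all 12 were lower in zSP, as were those of 5362 of the 8796 genes. In all pairs 11 of the 12 were lower, against 41.0% of all genes. The other, spi1b, picked here after its values were seen, differed by only -0.01 (-0.10 to 0.07). The list median was -1.17, with summed levels of 13.29 and 13.41 in zSP and 14.37 and 14.51 in zMP. The common leukocyte antigen ptprc, picked here after its values were seen, differed by -0.64. Among 10 red cell genes measured of 13 listed, 1 was called, the globin hbaa1 at -4.24, with summed levels of 6.54 and 6.80 in zSP and 8.48 and 8.79 in zMP. The other 9 did not exceed the blank range in either pool, and the red cell factor gata1a, picked here after its values were seen, was higher in zSP in all pairs by 1.19 (0.57 to 1.82). The part of leukocytes and red cells in the lower values of TRiC, prefoldin and hspd1 was not tested.

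DnaJ genes with roles outside general folding were not called. The ribosome biogenesis factor dnajc21 read 6.49 and 6.84 in zSP and 6.03 and 4.68 in zMP, where it was within the blank range. Its difference of 1.31 (0.46 to 2.17) was 1.99 without zMP replicate 1 and 0.64 without zMP replicate 2. The cysteine string protein gene dnajc5ga, at 4.26 and 5.34 in zSP and 3.30 and 2.95 in zMP, differed by 1.68 (0.96 to 2.39) within the blank range. The gene dnajc12, a cofactor of aromatic amino acid hydroxylases, was high on a single array, at 6.21 against 3.51 on the other zSP array and 3.43 and 4.17 in zMP. Its difference of 1.06 was 2.41 from zSP replicate 1 alone and -0.29 from zSP replicate 2 alone. The other 5 members, dnajc4, dnajc5gb, dnajc9, dnajc17 and dnajc24, lay between -0.41 and -0.19 within the blank range. The patterns also caught hsf2bp, a meiotic recombination protein that binds HSF2, and hspa12a, a distant HSP70 relative. These had no shown signal, at 1.75 and 1.63 in zSP and 1.86 and 1.42 in zMP for hsf2bp, and at 3.26 and 3.48 against 3.66 and 3.72 for hspa12a.

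Partners of these chaperones outside the name patterns were mostly not called. Of 20 HSP90 and HSP70 partners and related stress genes measured of 26 listed, 2 were called, both towards zSP. Over all genes 7.84% were called towards zSP and 2.89% towards zMP. The median of the list was -0.56 against -0.20 for all genes. The called genes were the HSP90-bound immunophilin fkbp5 at 2.45 (2.31 to 2.58) and the polyubiquitin gene ubb at 1.82 (1.76 to 1.88). The zMP mean of fkbp5 lay within the blank range. Of 25 genes of ER folding and the unfolded protein response measured of 33 listed, 1 was called in each direction. The transcription factor xbp1 was higher by 2.13 (1.68 to 2.58), from a zMP mean of 9.93 to a zSP mean of 12.06. The disulfide isomerase pdia3 differed by -1.73 (-2.27 to -1.20), with its zSP mean within the blank range. Of 11 mitochondrial folding and protease genes measured of 19 listed, only timm44, the membrane tether of the import motor, was called, at -1.91 (-2.42 to -1.40), and neither of its pools exceeded the blank range.

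Immediate early genes, which respond within minutes to stress and to tissue handling, were mostly higher in zSP. Of 25 measured of 32 listed, 13 were called, all towards zSP, against 7.84% of all genes, and the median was 1.57. In all pairs 21 were higher in zSP and 3 were lower, against 21.7% and 41.0% of all genes. The stress factor atf3 was higher by 4.96, the cytokine signalling inhibitors socs3b and socs3a by 4.12 and 3.73, and the stress sensor gadd45bb by 3.35. The zMP means of socs3b and gadd45bb lay within the blank range. The summed level of the 25 genes measured was 15.23 and 15.27 in zSP and 14.14 and 14.14 in zMP. The part of a general stress response in the values of hsp70.3, hsp90aa1.2 and dnajb1b was not tested.

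Agreement between arrays differed among members. The median gap between the arrays of a pool was 0.42 for zSP and 0.28 for zMP over the 72 members. In 19 members the arrays of at least 1 pool stood more than 1 apart, 13 of them in zSP and 8 in zMP. The widest gaps were those of hspa14 (2.76), dnajc12 (2.70) and hspb6 (2.44) in zSP and of hspbp1 (2.24) in zMP. Of the 11 called members, hspa8b and hspb1 were in this group, with gaps of 1.197 in zSP and of 1.195 in zMP respectively.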

How the data were processed

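Per the submitters' processing notes, the authors made the deposited log2 expression values with RMA in the affy package, which corrects background, normalizes probes between arrays and summarises probe sets. Versions and settings are not stated there. Each of the 4 columns was matched to a sample by its name. Of 15617 probe sets, 115 controls were left out, 10795 carried 1 gene in the platform annotation, 135 several and 4572 none. Symbols were checked against the gene table of the GRCz12tu assembly, and no member's symbol changed. No coordinates or sequences are printed, and promoter motifs were not analysed here.

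The members, classes and gene lists were chosen with earlier results of these data known. Values in every array were given for each called member and for the 3 largest differences of each class, with others added where a family is described. From each list up to 4 called genes were named, apart from those said to be picked later. A leukocyte gene that this rule names is not reported here. A further 2 members, hsf2bp and hspa12a, were put in a class of name matches after the files were seen. Blank controls were bacterial, artificial tag and reporter probe sets. Without the EGFP probe set the top of their range would be 5.24.

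Calls by size have no p-value, and the number of arrays, 2 per pool, limits the precision. Calculations used Python 3.11.15, pandas 2.3.3 and limma 3.58.1 in R 4.3.3. The rule of size and limma were tested on simulated data. The alternatives tried were a smaller and a larger size, the means alone, each array left out, 3 scalings, a filter on low values, other choices of probe sets, and limma, which compares the RNA pools and not the populations.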

Additional observations from a re-analysis of the deposited data

How the results depend on the processing

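All 11 called members kept their direction under every alternative in which they were measured. For most alternatives the call rule fixed this outcome. A call needs the same sign in all pairs of arrays, so leaving out an array cannot reverse it. The other sizes, the means alone and the filter leave the difference itself unchanged. Direction could change only where the values were altered, by the scalings or by other choices of probe sets. Members called higher in zSP numbered 9 as reported, 14 by the difference of means alone, 7 to 11 under the other sizes, scalings, probe set choices and the filter, and 11 to 13 with 1 array left out. Members called higher in zMP numbered 2 as reported, 12 at 1.5-fold, 1 at 3-fold, 9 by the difference of means, 1 after cyclic loess, 5 after a second quantile normalization and 5 to 8 with 1 array left out, where fewer pairs must pass. Over all genes the shares moved too, from 7.84% towards zSP and 2.89% towards zMP as reported. They were 14.2% and 9.22% by the means alone, 11.6% and 9.65% at 1.5-fold and 4.5% and 0.693% at 3-fold. Cyclic loess gave 9.29% and 1.89%, and the second quantile normalization 7.36% and 3.51%. The filter gave 16.9% and 6.57% of the genes kept. With 1 array left out the shares were 11% to 12.5% and 6.05% to 6.72%. The call of cct3 ended at 3-fold and after cyclic loess, and those of hspa5 and hspa8b at 3-fold. Between the RNA pools limma passed 7 members higher in zSP and 1 (hspd1) higher in zMP, and 268 and 42 of all genes. With a replicate block, limma with Benjamini-Hochberg adjustment passed 0 and 0 members, and likewise 0 and 0 of all genes. An unadjusted limma p under 0.05 was found for 22 members with the block and for 25 without it. The share of all genes under that p was not counted, so that these counts cannot be read as a result about the members. The deviations of same-numbered arrays correlated at -0.0086 across genes. In normalized values this cannot show whether same-numbered arrays were handled together.

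After cyclic loess the class medians were -0.64 for chaperonin and prefoldin, -0.60 for TRiC and 0.34 for constitutive members. With the filter on low values, which keeps members through the pool where they are high, they were 0.63 for ER, 0.29 for constitutive, 0.41 for heat shock factors, 4.23 for inducible and 1.31 for the single other DnaJ member left. With 1 array left out the medians ranged from 0.0035 to 0.44 for ER, -0.85 to -0.30 for mitochondrial, -1.04 to -0.90 for chaperonin and prefoldin, and -0.25 to 0.0597 for other DnaJ genes, as reported -0.20. Where not shown by fewer arrays or genes, the cause was not tested. With 2 arrays per pool, calls changed with the scaling and the size, also for members with large mean differences such as hspbp1 (2.47) and hspa14 (-2.61). A call depends on the pair of arrays with the smallest difference and not on the mean. The 33 members within the blank range have no shown signal.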
